A study of Mus musculus with 16 samples.

Results

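The non-fibrillar collagen chains of mouse flexor tendon were taken as every gene symbol of the count table with the form of a collagen alpha chain gene, without the chains of the fibril-forming types I, II, III, V, XI, XXIV and XXVII. This gave 33 genes of 49568 in the table and of 44 collagen chain genes in all. By class, 9 belong to basement membranes and their anchorage, 7 to beaded filaments, 9 to the fibril-associated collagens, 3 to network-forming collagens and 4 to transmembrane collagens, and Col26a1 stands in none of these classes.

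Every collagen is a trimer of alpha chains, and the chains studied here form sheets, filaments and bridges rather than the thick fibrils that carry load in tendon. Type IV chains build the scaffold of basement membranes, where types XV and XVIII sit at the interface with the surrounding matrix and type VII forms anchoring fibrils of skin. Type VI chains assemble into beaded filaments around cells. Types IX, XII, XIV, XVI and XXII lack the ability to form fibrils alone and bind to the surface of other fibrils or to basement membranes. Type VIII chains form short-chain networks in vessel walls and in the basement membrane of the corneal endothelium, and the transmembrane collagens are cell surface proteins whose ectodomains can be shed.

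Flexor tendons of the hind paw from young adult male C57BL/6J (C57) and MRL/MpJ (MRL) mice were sequenced either uninjured or 7 days after a laceration across 50% of the width of the tendon. MRL is an inbred strain known for regenerative healing, and no transgene was used in any group. The injured mice were operated on under ketamine and xylazine and received buprenorphine afterwards, and where uninjured mice had none of these, injury and drugs cannot be told apart. Each of the 4 groups, an uninjured and an injured one per strain, held 4 libraries, each from a single tendon of a different animal, and the sheath around the tendon was not removed. In the injured groups, replicate numbers are names only. A count is a read assigned to a gene, and values are CPM, the counts of a gene per 1e6 counts of its library, with library sizes scaled by the trimmed mean of M-values (TMM).

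The libraries held between 12552424 and 23741648 counts, so that 3 counts corresponded to 0.126 to 0.239 CPM before TMM scaling. Each injured MRL library held at least 18524170 counts and each library of the other groups at most 17832908. The part of this depth in the results was not tested. Tenocyte markers were read in all libraries, with summed levels of 4992 to 19300.3 CPM. Both uninjured libraries numbered 4 went against their strain labels. In the injured libraries, 18 genes had at least 20 counts in every C57 library and at most 1 in every MRL library, and 25 genes showed the opposite. The library labelled C57 uninjured replicate 4 had at least 5 counts for 24 of the 25 genes of MRL and for 3 of the 18 of C57, whereas the library labelled MRL uninjured replicate 4 had them for 0 of the 25 and 14 of the 18. In the other 3 uninjured C57 libraries 14 to 17 of the C57 genes and 0 to 2 of the MRL genes reached this count, and in the other 3 uninjured MRL libraries 1 to 3 and 24 to 25. All libraries were kept in the group of their label, and calls that changed without these 2 libraries are given with and without them. The library labelled C57 uninjured replicate 4 also had 77316 CPM of 12 keratinocyte markers, compared with at most 587 CPM elsewhere, and C57 injured replicate 1 had 60388 CPM of 12 skeletal muscle markers, compared with 1853 CPM in C57 injured replicate 2 and at most 22.2 CPM elsewhere.

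Type VI collagen dominated the non-fibrillar chains in every library. The 3 major type VI chains took 62.9% to 90.8% of the counts of all 33 genes, and the lowest share was that of the library labelled C57 uninjured replicate 4. To compare levels between genes, CPM were divided by the length of all annotated exons in kilobases (CPM per kilobase of exon, RPKM). Averaged over 16 libraries, Col6a1 stood at 495.8 RPKM, Col6a2 at 165.8 RPKM and Col6a3 at 59.0 RPKM, followed by Col8a2 at 22.3 RPKM, Col16a1 at 17.0 RPKM, Col8a1 at 11.2 RPKM, Col12a1 at 9.46 RPKM, Col4a2 at 9.23 RPKM and Col4a1 at 9.03 RPKM. Below the 3 major type VI chains the order turned with the group. In injured C57 tendons the mean levels were 17.0 RPKM for Col4a2, 16.4 RPKM for Col4a1, 14.9 RPKM for Col16a1 and 12.6 RPKM for Col8a2. In injured MRL tendons they were 24.2 RPKM for Col16a1, 23.3 RPKM for Col8a1, 17.8 RPKM for Col12a1 and 15.6 RPKM for Col8a2. Col4a1 and Col4a2 did not differ in level beyond their spread, and their order turned when the length of the longest transcript was used. At the other end, Col19a1 had no count in any library, Col6a4 and Col6a5 had 1 count each in all libraries together, and Col10a1, Col6a6 and Col26a1 had 33 or 34 counts each.

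The comparisons were the injury effect in each strain, the strain difference in uninjured and in injured tendons, and the interaction of strain and injury. A chain was called when the adjusted p of edgeR's quasi-likelihood test, over all genes tested, was under 0.05 and the log2 fold change was over 1 or under -1 (for the interaction, by adjusted p alone). After the filter on low counts, 20 of the 33 chains were tested for injury in MRL and 4 of them were called, all higher in injured tendon, where 7.41% of all genes tested were called and 5.25% were called higher. DESeq2 called 8 chains and 6.92% of genes there. In C57 23 chains were tested and 0 were called by edgeR, where 1.07% of all genes were called. In C57 8 chains had an unadjusted p under 0.05, as did 15.3% of all genes, and DESeq2 called 4 chains and 3.54% of genes. Between injured tendons of the strains, 5 of 21 chains were called, 2 higher and 3 lower in MRL, where 3.43% of all genes were called, 1.55% higher and 1.88% lower. DESeq2 called 9 chains and 5.63% of genes in this comparison, and in 1 fit over all 16 libraries Col12a1 alone of the 5 was called. The uninjured strains differed in 0 of 21 chains by edgeR, where 0% of genes were called, 3 chains and 7.87% of genes had an unadjusted p under 0.05, and DESeq2 called 0 chains and 104 genes (0.411%). No chain of 26 was called in the interaction, where 0% of all genes were called by edgeR, 2 chains and 12.2% of genes had an unadjusted p under 0.05, and DESeq2 called 0 chains and 198 genes (0.691%). Each injury comparison shares libraries with both strain comparisons, and these are therefore not independent of each other.

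**Figure D1:**
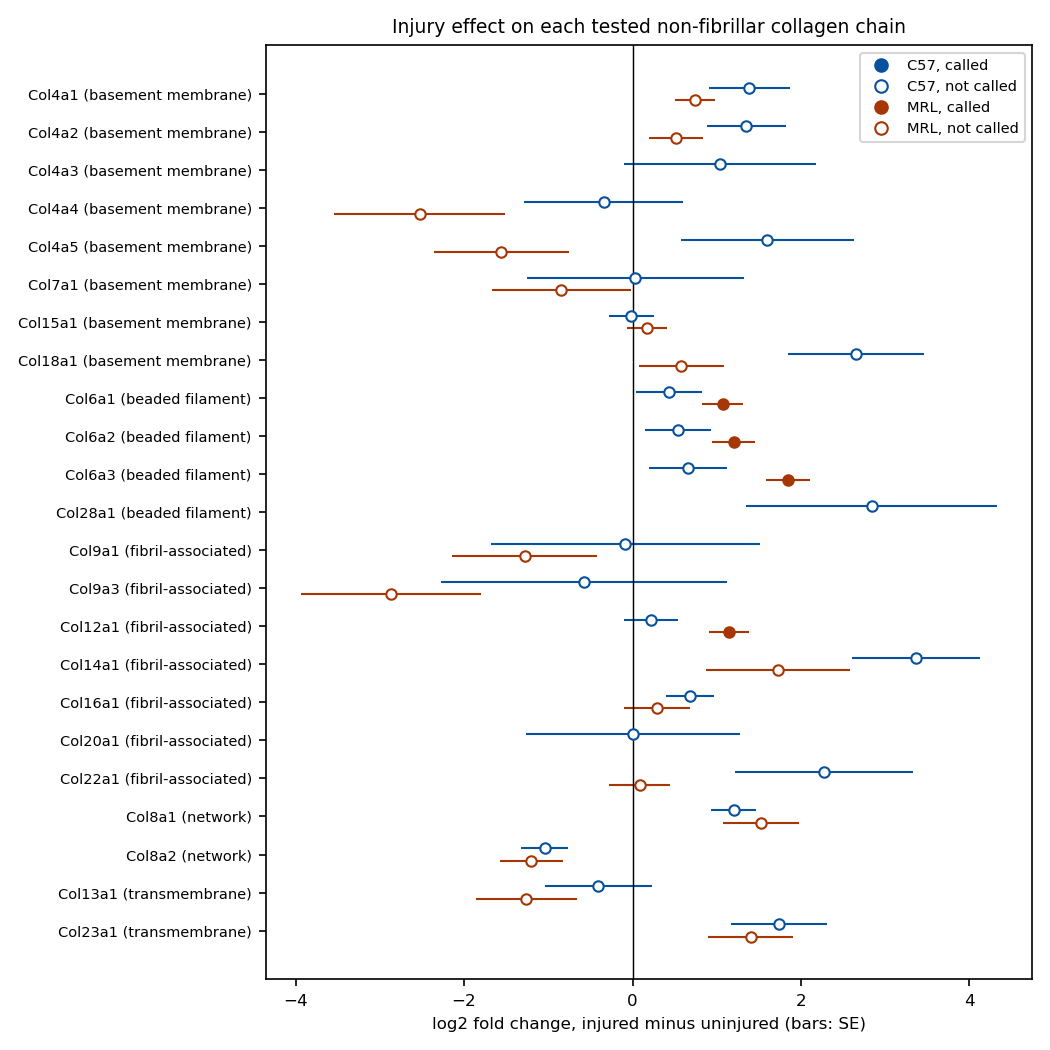
Log2 fold change of each tested chain between injured and uninjured tendons (x axis, bars are standard errors) for C57 in blue and MRL in brown, with called chains filled. Col6a1, Col6a2, Col6a3 and Col12a1 are called in MRL, and Col8a1 and Col8a2 lie on opposite sides of 0 in both strains.

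The 3 major chains of type VI collagen rose after injury in MRL tendons. Col6a3, the chain with the longest series of von Willebrand factor A domains, was read at 386, 396, 349 and 497 CPM in uninjured MRL replicates 1 to 4, and at 1245, 1826, 836 and 1904 CPM in injured MRL replicates 1 to 4. All injured libraries stood above all uninjured ones, as in 13.5% of all genes tested in MRL. The log2 fold change was 1.84 (SE 0.26, adjusted p = 0.0030), a rise of 3.58-fold, and it stayed called whichever library was left out. In C57, Col6a3 was read at 432, 431, 499.7 and 104 CPM before injury and at 339, 876, 707 and 468 CPM after it. These groups overlapped, and the log2 fold change was 0.66 (SE 0.47, adjusted p = 0.543). The difference of the 2 injury effects, tested as the interaction, was 1.13 on the log2 scale (SE 0.56, adjusted p = 0.437).

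Col6a1 and Col6a2, whose genes are neighbours on chromosome 10, encode the short chains that pair with Col6a3. Col6a1 stood at 1931, 1715, 1815 and 1621 CPM in uninjured MRL tendons and at 2828, 5857, 2888 and 3273 CPM in injured ones. Col6a2 stood at 1301, 1057, 1135 and 851 CPM in uninjured and at 1917, 3962, 2083 and 2007 CPM in injured MRL tendons. Neither gene's groups overlapped, and injured replicate 2 was far above the other 3 injured libraries for both. Col6a2 rose by 1.20 on the log2 scale (SE 0.26, adjusted p = 0.0165) and Col6a1 by 1.07 (SE 0.24, adjusted p = 0.0210). Without MRL injured replicate 2 these values were 0.90 and 0.77, under the fold limit, with adjusted p of 0.0273 and 0.0322. The call of Col6a1 was also lost without MRL uninjured replicate 1, 2, 3 or 4, with adjusted p of 0.0575, 0.0630, 0.0595 and 0.0517, and that of Col6a2 without MRL uninjured replicate 2, with an adjusted p of 0.0519. In 1 fit over all 16 libraries neither was called (adjusted p = 0.0735 for Col6a1 and 0.0513 for Col6a2).

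In C57 tendons Col6a1 was at 1491, 1534, 1838 and 491 CPM before and at 1079, 2304, 2026 and 2049.9 CPM after injury, a log2 fold change of 0.43 (SE 0.40, adjusted p = 0.651). Col6a2 was at 854, 883, 1076 and 297 CPM before and at 678, 1530.1, 1323 and 1140.3 CPM after injury, a log2 fold change of 0.54 (SE 0.39, adjusted p = 0.551). For both genes the lowest uninjured value was that of the library labelled C57 uninjured replicate 4, and the lowest injured value that of the library rich in muscle markers. Without the former, the log2 fold changes were 0.16 and 0.28, and that of Col6a3 was 0.35. Injured MRL tendons had higher Col6a1 and Col6a2 than injured C57 tendons in every library, but the log2 differences of 0.96 (adjusted p = 0.116) and 1.06 (adjusted p = 0.0925) were not called by edgeR. Col6a3 had the largest difference of the 3, 1.25 (SE 0.34, adjusted p = 0.0739), with groups that overlapped. DESeq2 called Col6a2 (adjusted p = 0.0139) and Col6a3 (adjusted p = 0.00700). Libraries of the injured groups failed to overlap, with MRL higher, for 8.27% of all genes tested.

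The remaining beaded filament chains were scarce. Col28a1 had its highest value, 6.72 CPM, in C57 injured replicate 1 and was at 1.95 CPM or less in MRL, with a log2 fold change of 2.84 (SE 1.49) for injury in C57 that was not called and ranged from 2.02 to 5.28 with 1 library left out. Col6a6 reached at most 0.882 CPM. Col6a4, Col6a5 and Col6a6, the alternatives to Col6a3 in the trimer, did not reach 1 CPM in any library, while Col6a3 had at least 104 CPM in all 16.

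**Figure D2:**
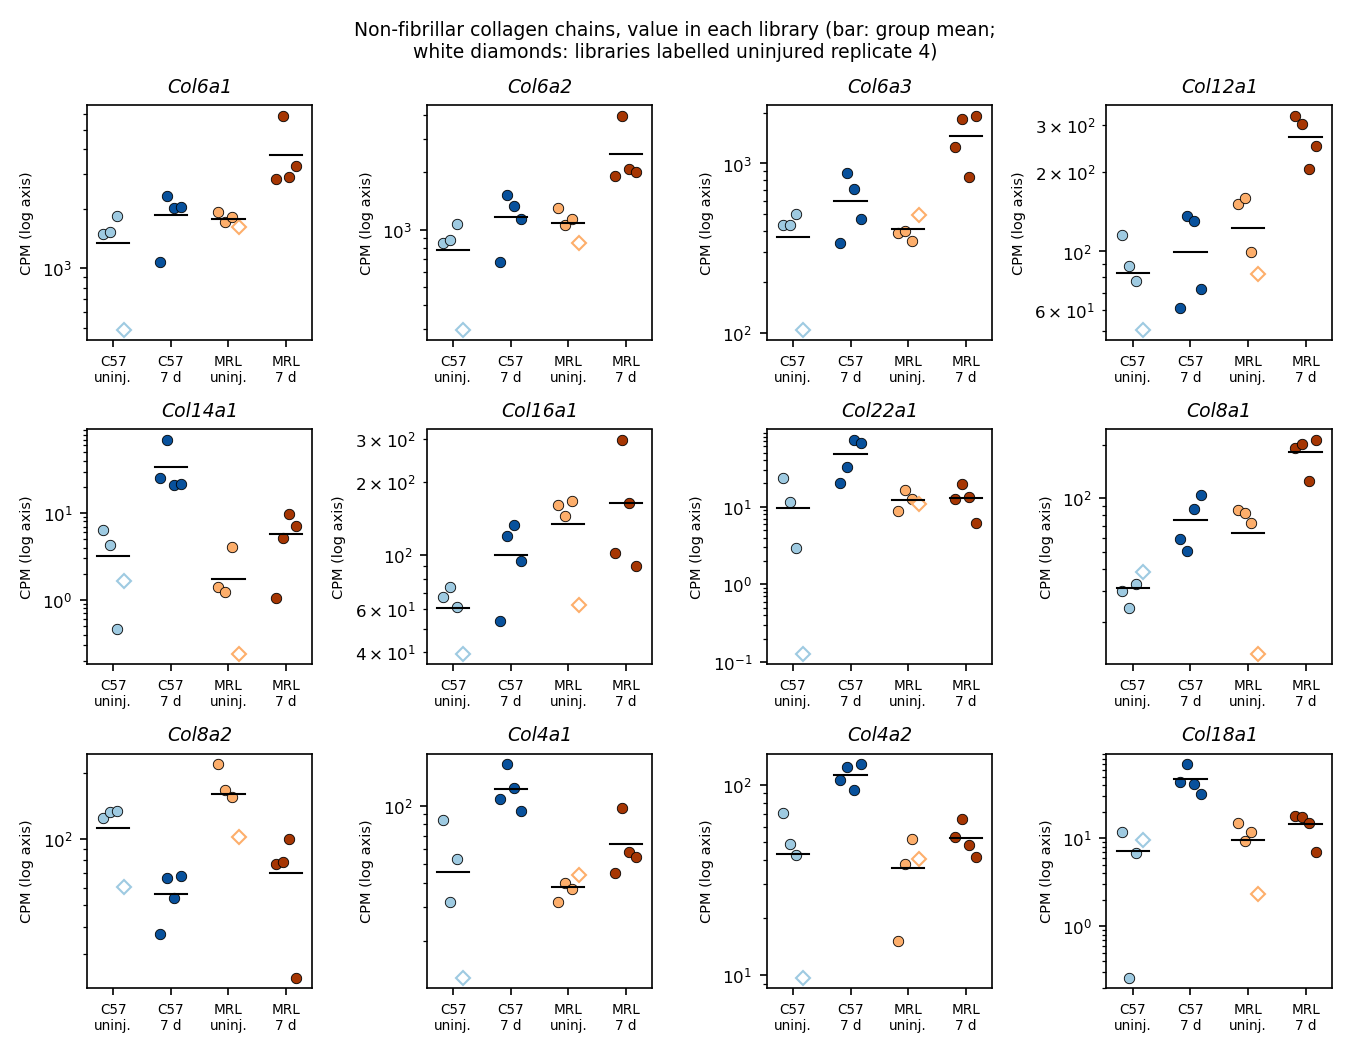
CPM on a log axis of 12 chains in each of the 16 libraries, by group, with bars at the group means and white diamonds for the libraries labelled uninjured replicate 4. Col12a1 of injured MRL tendons (204 to 324 CPM) sits above all other libraries, and Col14a1, Col4a2 and Col18a1 are highest in injured C57 tendons.

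Of the fibril-associated chains, Col12a1 rose in MRL tendons. Type XII collagen binds to type I fibrils, and in uninjured MRL tendons its gene was read at 151, 159, 99.6 and 82.4 CPM, compared with 324, 304, 204 and 249.9 CPM after injury. The groups did not overlap, and the log2 fold change was 1.14 (SE 0.24, adjusted p = 0.0148). Without MRL uninjured replicate 3 the adjusted p was 0.0515. In C57 tendons it was read at 115, 88.0, 77.7 and 50.7 CPM before and at 61.3, 136, 130.3 and 72.0 CPM after injury, with a log2 fold change of 0.22 (SE 0.32, adjusted p = 0.798). The interaction was 0.87 (SE 0.42, adjusted p = 0.431). Between injured tendons Col12a1 was 2.66-fold higher in MRL (log2 1.41, SE 0.28, adjusted p = 0.0233), with all MRL libraries above all C57 libraries. This call was lost without C57 injured replicate 4 (adjusted p = 0.0797) and without MRL injured replicate 2 (adjusted p = 0.0627).

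Markers of other cells also differed between injured and uninjured MRL tendons. The summed level of 6 macrophage markers was 180 to 311 CPM before and 428 to 821 CPM after injury, and 4 of 6 were called higher, Cd68, Itgam, Adgre1 and Cd14, compared with 3 of 6 in C57. Of the tenocyte markers Thbs4 was called higher (1.31, adjusted p = 0.00679), and of the chondrocyte markers Acan was called higher (1.91, adjusted p = 0.0421) and Chad lower (-1.84, adjusted p = 0.0139). Their part in the rise of Col12a1 and the type VI chains was not tested.

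Col14a1, which encodes the related type XIV collagen of dense connective tissue, had the opposite order between injured strains. It was read at 6.38, 4.34, 0.463 and 1.66 CPM in uninjured C57 tendons and at 25.1, 69.0, 20.8 and 21.8 CPM in injured ones. All injured C57 libraries were above all uninjured ones, as in 7.42% of all genes tested in C57. The log2 fold change of 3.36 (SE 0.76) had an adjusted p of 0.0746 by edgeR and of 0.000102 by DESeq2. In MRL tendons it stood at 1.39, 1.23, 4.06 and 0.241 CPM before and at 1.05, 5.17, 9.7 and 7.07 CPM after injury, with overlapping groups and a log2 fold change of 1.73 (SE 0.85, adjusted p = 0.212). Injured MRL tendons were below injured C57 tendons in every library, as in 7.58% of all genes tested, and the log2 difference was -2.60, where the adjusted p was 0.0512 by edgeR and 0.000628 by DESeq2. The interaction was -1.70 on the log2 scale (SE 1.14, adjusted p = 0.584). Without MRL uninjured replicate 3 it was -0.84 and the injury effect in MRL was 2.56, and with any 1 library left out these ranged from -2.25 to -0.84 and from 1.36 to 2.56.

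Col22a1, a collagen of tissue junctions such as the one between muscle and tendon, was lower in injured MRL than in injured C57 tendons. Injured C57 replicates 1 to 4 had 20.4, 33.0, 72.3 and 66.2 CPM, and injured MRL replicates 1 to 4 had 12.7, 19.5, 13.2 and 6.18 CPM. The lowest C57 value belonged to the library with 60388 CPM of muscle markers, and the 2 highest to libraries with at most 10.1 CPM of them. The part of muscle in these values was not tested. The log2 difference was -1.92 (SE 0.44, adjusted p = 0.0434), and the call stayed only when C57 injured replicate 1 was left out. Without any 1 of the other 7 libraries the adjusted p was between 0.0655 and 0.118. Uninjured tendons had 23.8, 11.6, 2.93 and 0.128 CPM in C57 and 8.95, 16.3, 12.8 and 10.8 CPM in MRL, and the injury effects were 2.27 (SE 1.06, adjusted p = 0.356) and 0.08 (SE 0.36, adjusted p = 0.908) on the log2 scale. The former went from 1.86 without the library labelled C57 uninjured replicate 4 to 3.25 without C57 uninjured replicate 1.

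Col16a1, the most abundant fibril-associated chain per length, was read at 67.6, 73.8, 61.4 and 39.4 CPM in uninjured C57 and at 160.1, 144, 168 and 62.8 CPM in uninjured MRL tendons. As labelled, the strains overlapped, with a log2 difference of 1.12 (SE 0.31, adjusted p = 0.621). Without both libraries numbered 4 the values of MRL were 2.31-fold those of C57 (log2 1.21, SE 0.12, adjusted p = 0.000360), in a comparison of 3 against 3 libraries where 3.48% of all genes were called. After injury it stood at 53.7, 120.3, 134 and 94.8 CPM in C57 and at 102, 297, 164 and 90.1 CPM in MRL, and neither injury effect was called (0.68, adjusted p = 0.309, and 0.29, adjusted p = 0.675). The type IX chains, which belong to cartilage, were uneven among libraries. Col9a3 was at 19.5, 48.5, 23.7 and 1.29 CPM in uninjured MRL tendons and at most 4.98 CPM in every other library, and Col9a1 ranged from 0 to 20.5 CPM.

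The type VIII chains stood on opposite sides of their uninjured values after injury. Col8a1 was at 30.2, 24.2, 33.0 and 38.3 CPM in uninjured C57 and at 58.7, 50.3, 87.2 and 104 CPM in injured C57 tendons. In MRL it was at 85.6, 82.4, 72.7 and 13.3 CPM before and at 191, 201, 125 and 212 CPM after injury. In each strain all injured libraries stood above all uninjured ones. The fold changes as labelled were 1.20 (SE 0.27, adjusted p = 0.0693) in C57 and 1.53 (SE 0.45, adjusted p = 0.0551) in MRL on the log2 scale and were not called by edgeR, whereas DESeq2 called both (adjusted p = 0.00280 and 0.00849). With each strain's uninjured library numbered 4 left out they were 1.33 (SE 0.27, adjusted p = 0.0225) and 1.20 (SE 0.20, adjusted p = 0.0113), in fits that called 5.01% and 6.11% of all genes.

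Injured tendons had less of the counterpart Col8a2 in most libraries. It was at 124, 132, 134 and 60.4 CPM in uninjured C57 and at 37.0, 66.4, 54.1 and 68.1 CPM in injured C57 tendons, and at 219, 167, 155 and 102 CPM in uninjured MRL and 77.4, 78.6, 99.7 and 23.5 CPM in injured MRL tendons. In MRL all injured libraries were below all uninjured ones, as in 9.44% of all genes, and in C57 only the library labelled uninjured replicate 4 overlapped. As labelled, the log2 fold changes were -1.04 (SE 0.28, adjusted p = 0.132) in C57 and -1.20 (SE 0.38, adjusted p = 0.0678) in MRL, where DESeq2 called it (adjusted p = 0.0188). Without the library labelled C57 uninjured replicate 4, Col8a2 fell by 1.24 on the log2 scale in C57 (SE 0.20, adjusted p = 0.0103), whereas in MRL without the library labelled uninjured replicate 4 the value was -1.35 (adjusted p = 0.0731).

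Between injured tendons of the strains, a difference was called for 1 type VIII chain. Col8a1 was 2.37-fold higher in MRL (log2 1.25, SE 0.26, adjusted p = 0.0284), and every MRL library was above every C57 library. The call was lost without C57 injured replicate 1, 2 or 3 (adjusted p = 0.0655, 0.0738 and 0.0566) and without MRL injured replicate 1, 2 or 4 (adjusted p = 0.0541, 0.0725 and 0.0527). In uninjured tendons the log2 difference of Col8a1 was 0.98 (SE 0.48, adjusted p = 0.647) as labelled, and 1.45 (SE 0.17, adjusted p = 0.000798) without both libraries numbered 4. Col8a2 did not pass in either comparison, with log2 differences of 0.49 in uninjured and 0.28 in injured tendons. Markers of tendon and cartilage cells were compared between injured tendons, beside Col8a1, Col12a1 and the type VI chains. The summed level of 6 tenocyte markers was 6771 to 10198 CPM in injured C57 and 13051 to 19300.3 CPM in injured MRL tendons, with 6 of 6 log2 differences positive and Scx called (1.18, adjusted p = 0.0162). The summed level of 8 chondrocyte markers was 7015 to 15436 CPM and 9691 to 21981 CPM, and Comp and Chad made up most of each sum. Acan was at 4.34 to 21.6 CPM in injured C57 and 48.1 to 358 CPM in injured MRL tendons, and Col2a1 at 2.79 to 16.9 CPM and 11.8 to 355 CPM. Of the tested markers 5 of 6 were positive and Acan (3.78, adjusted p = 0.0272) and Hapln1 (3.57, adjusted p = 0.00666) were called. Matn1 was at 0 in all injured libraries. The part of these tenocyte and chondrocyte markers in the differences of these collagens was not tested. Col10a1, the network collagen of hypertrophic cartilage, reached at most 0.612 CPM.

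Promoter sequence was looked up for the 8 chains called in any comparison, because those of type VI moved together. The RefSeq table (GRCm38.p6) held 6 of the 8, and in 3 of these the 250 bases before the most upstream start were free of annotated exons. They are Col6a2 at chr10:76623631-76623880, Col6a3 at chr1:90843972-90844221 and Col8a1 at chr16:57754738-57754987, all on the minus strand. Each is written 5′ to 3′ along the gene's strand, with GC boxes (GGGCGG, on either strand) in capitals.
Col6a2: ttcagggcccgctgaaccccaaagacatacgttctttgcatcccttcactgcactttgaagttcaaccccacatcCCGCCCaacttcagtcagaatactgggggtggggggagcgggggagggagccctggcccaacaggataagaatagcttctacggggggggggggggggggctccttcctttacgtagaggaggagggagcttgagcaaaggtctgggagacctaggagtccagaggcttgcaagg
Col6a3: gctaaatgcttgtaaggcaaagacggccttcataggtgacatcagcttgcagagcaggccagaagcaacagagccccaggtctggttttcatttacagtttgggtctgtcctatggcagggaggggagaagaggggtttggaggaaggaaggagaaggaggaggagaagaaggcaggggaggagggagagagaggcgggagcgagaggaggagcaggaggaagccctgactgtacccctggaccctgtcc
Col8a1: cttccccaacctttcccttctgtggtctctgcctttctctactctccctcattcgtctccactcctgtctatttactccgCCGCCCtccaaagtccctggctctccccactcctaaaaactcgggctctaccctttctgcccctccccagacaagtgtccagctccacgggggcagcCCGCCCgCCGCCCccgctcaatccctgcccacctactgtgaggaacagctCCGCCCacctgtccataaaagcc
The stretch of Col8a1 held 4 GC boxes, that of Col6a2 held 1 and that of Col6a3 held 0, and 33% of 27025 promoters of this length held at least 1. None of the 3 held the letters TATAAA of the TATA box, which 13% of all promoters held. Neither did they hold the letters CCAAT of the box of that name, found in 34.5% of promoters. The AP-1 motif, TGANTCA, was missing from all 3 and was present in 6.85% of promoters. Motifs were searched on both strands and may overlap each other. A match of letters is a description and not a bound site.

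The basement membrane chains Col4a1, Col4a2 and Col18a1 had their highest group means in injured C57 tendons. Col4a1 and Col4a2, whose genes lie head to head on chromosome 8 with overlapping annotated 5′ ends, encode the chains found in nearly all basement membranes. Col4a1 was at 84.1, 31.7, 53.1 and 13.0 CPM in uninjured and at 108, 163, 124 and 94.2 CPM in injured C57 tendons. Col4a2 was at 71.0, 49.0, 42.7 and 9.70 CPM before and at 105, 123, 93.8 and 128 CPM after injury. Both stood higher in every injured than in every uninjured library, with log2 fold changes of 1.39 (SE 0.48, adjusted p = 0.224) and 1.35 (SE 0.47, adjusted p = 0.228). Without the library labelled C57 uninjured replicate 4, which had the lowest value of both, Col4a2 was called (1.02, SE 0.21, adjusted p = 0.0240) and Col4a1 was not (1.08, adjusted p = 0.0873).

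In MRL tendons Col4a1 was at 31.9, 40.0, 37.3 and 43.8 CPM before and at 44.7, 97.4, 58.0 and 54.3 CPM after injury, with a log2 fold change of 0.74 (SE 0.24, adjusted p = 0.0716). Col4a2 was at 15.1, 38.4, 52.0 and 40.8 CPM before and at 53.3, 66.0, 48.1 and 41.6 CPM after injury, with a log2 fold change of 0.52 (SE 0.32, adjusted p = 0.319). Injured MRL tendons had 2.21-fold less Col4a2 than injured C57 tendons, with no overlap (log2 -1.14, SE 0.19, adjusted p = 0.0116), and without MRL injured replicate 4 the difference of -0.99 was within the fold limit (adjusted p = 0.0264). Col4a1 differed by -0.98 (SE 0.27, adjusted p = 0.0731) and overlapped.

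Col18a1, which encodes the source of the fragment endostatin, was at 11.9, 0.259, 6.79 and 9.64 CPM in uninjured C57 and at 43.8, 69.3, 41.6 and 31.4 CPM in injured C57 tendons. The groups did not overlap, and the log2 fold change of 2.65 (SE 0.81) had an adjusted p of 0.174 by edgeR and of 0.0111 by DESeq2. In MRL it was at 15.0, 9.30, 11.8 and 2.33 CPM before and at 17.7, 17.5, 15.0 and 6.96 CPM after injury (log2 0.58, SE 0.51, adjusted p = 0.496, and 0.27 without the library labelled MRL uninjured replicate 4). Injured MRL tendons had 3.33-fold less Col18a1 than injured C57 tendons, with no overlap (log2 -1.73, SE 0.34, adjusted p = 0.0229). That call was lost without C57 injured replicate 2 (adjusted p = 0.0674), MRL injured replicate 2 (adjusted p = 0.0578) or MRL injured replicate 3 (adjusted p = 0.0537). The interaction was -2.13 on the log2 scale (SE 0.98, adjusted p = 0.407). The related Col15a1 stayed between 20.9 and 45.8 CPM in C57 and between 39.6 and 82.0 CPM in MRL and was not called in any of the 5 comparisons.

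Endothelium lies on a basement membrane, and its markers were summed beside these chains. The summed level of 8 endothelial markers was 19.2 to 103 CPM in uninjured and 116 to 204 CPM in injured C57 tendons, and 2.45 to 77.6 CPM in uninjured and 0.924 to 27.3 CPM in injured MRL tendons. None of the 8 was at 0 in all libraries of a group. In C57 all 8 had a positive log2 fold change and 0 were called, and in injured MRL against injured C57 all 8 had a negative log2 difference and 2 were called, Pecam1 (-3.75, adjusted p = 0.0389) and Cldn5 (-5.24, adjusted p = 0.0394). Of 6 mural cell markers 5 had a negative log2 difference between injured MRL and injured C57 tendons and 2 were called, Rgs5 (-2.67, adjusted p = 0.00169) and Notch3 (-3.24, adjusted p = 0.0272). Their summed level was 424 to 445 CPM in injured C57 and 263 to 372 CPM in injured MRL tendons, and none was at 0 in all libraries of a group. Rgs5 was also called higher after injury in C57 (1.66, adjusted p = 0.0453), and in MRL Pdgfrb was called lower (-1.01, adjusted p = 0.0275) and Rgs5 was at -1.28 (adjusted p = 0.142). Schwann cells also bear a basement membrane. All 7 tested of their 8 markers had a negative difference between injured strains, and Sox10 (-6.12, adjusted p = 0.0349) and Prx (-5.77, adjusted p = 0.0458) were called. Their summed level was 903 to 2067 CPM in injured C57 and 526 to 949 CPM in injured MRL tendons. Of 6 macrophage markers all were negative and Csf1r was called (-1.39, adjusted p = 0.0273). The part of these markers in the differences of Col4a1, Col4a2 and Col18a1 was not tested, and in whole tissue fewer cells of a type cannot be told apart from less RNA per cell.

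**Figure D3:**
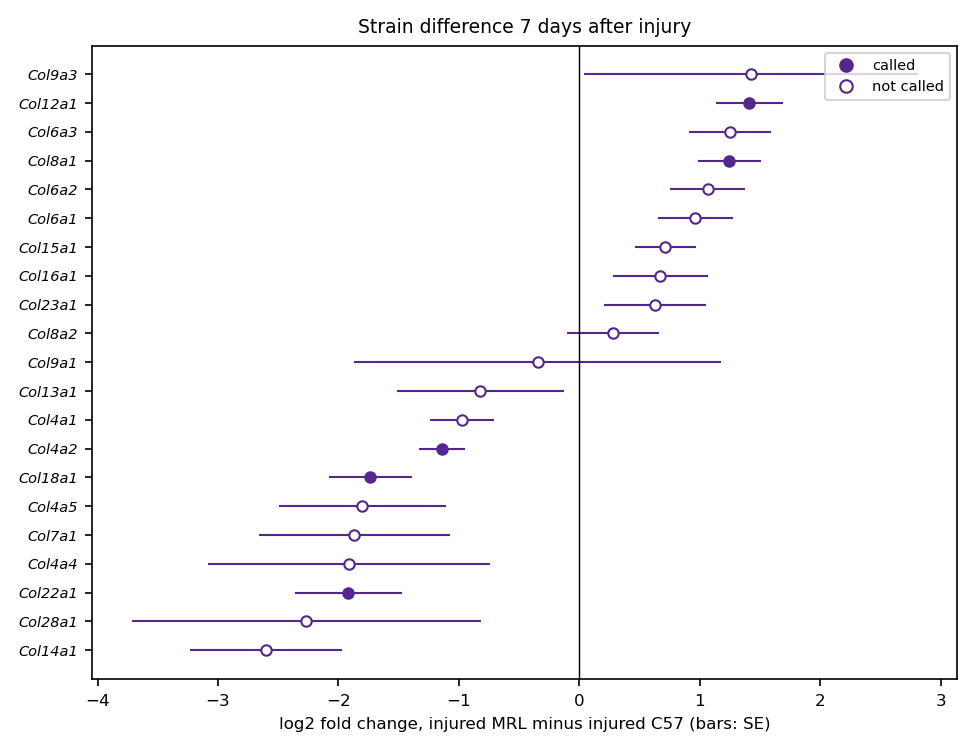
Log2 difference between injured MRL and injured C57 tendons for each of the 21 tested chains (x axis, bars are standard errors), ordered by size, with called chains filled. Col12a1 and Col8a1 are called higher in MRL, and Col4a2, Col18a1 and Col22a1 lower.

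The minor type IV chains were scarce. Col4a5, which with Col4a3 and Col4a4 forms the network of kidney and lung, was at 1.61, 0, 3.78 and 2.11 CPM in uninjured and at 5.88, 3.20, 6.87 and 7.59 CPM in injured C57 tendons, and at 2.52, 2.09, 11.04 and 4.66 CPM in uninjured and 0.462, 2.63, 3.17 and 0.612 CPM in injured MRL tendons. Its interaction had the lowest unadjusted p of the chains, 0.0334, with a size of -3.21 on the log2 scale (SE 1.38, adjusted p = 0.382). With 1 library left out this size ranged from -3.79 to -2.49. Col4a4 was at 4.51, 6.13, 4.42 and 3.13 CPM in uninjured and at 1.64, 0.227, 1.23 and 0 CPM in injured MRL tendons, with no overlap. Its log2 fold change of -2.53 (SE 1.01) had an adjusted p of 0.134 by edgeR and of 0.0315 by DESeq2. With 1 library left out it ranged from -3.19 to -2.12. In C57 Col4a4 overlapped between 0.319 and 5.84 CPM in uninjured and 0.493 and 4.92 CPM in injured tendons. Col4a3 was at 3.12, 1.29, 0.324 and 1.42 CPM in injured C57 and at 0, 0.227, 0 and 0 CPM in injured MRL tendons. It did not pass the filter of the edgeR test there, and DESeq2 called it lower in MRL (adjusted p = 0.00852). Col4a6 and Col7a1, a chain of epidermal anchoring fibrils, were highest in the library labelled C57 uninjured replicate 4, at 8.43 and 8.81 CPM, the library with 77316 CPM of keratinocyte markers.

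Of the transmembrane chains, Col17a1, a component of the hemidesmosomes of keratinocytes, was the highest by mean level because of 1 library. It was at 1.14, 0, 1.62 and 241 CPM in uninjured C57 tendons, and 5.57 CPM was the highest value of all other libraries. Injured C57 tendons had 0, 0.616, 0.0648 and 0.142 CPM, uninjured MRL tendons 5.57, 0, 2.92 and 0 CPM, and injured MRL tendons 0, 1.36, 0.0441 and 0.111 CPM. The gene did not pass the filter on low counts in the injury comparisons, and the log2 difference of -4.92 (SE 2.52, adjusted p = 0.662) between uninjured strains turned to 1.61 (adjusted p = 0.656) without both libraries numbered 4.

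Col23a1, a further chain of the cell surface, had its lowest values in uninjured tendons of both strains. It was at 2.08, 1.75, 1.31 and 0.766 CPM before and at 6.78, 3.70, 2.98 and 6.67 CPM after injury in C57, and at 2.52, 3.89, 4.65 and 1.12 CPM before and at 10.2, 6.03, 5.77 and 10.2 CPM after injury in MRL. The groups did not overlap in either strain, but the log2 fold changes of 1.74 (SE 0.57, adjusted p = 0.204) and 1.40 (SE 0.51, adjusted p = 0.102) were not called by edgeR, whereas DESeq2 called both (adjusted p = 0.0138 and 0.0262). Col13a1, a chain found at the neuromuscular junction, was at 6.58, 3.17, 4.16 and 5.43 CPM in uninjured and 3.78, 3.94, 0.778 and 6.53 CPM in injured C57 tendons, and at 8.22, 4.33, 6.27 and 2.17 CPM in uninjured and 1.01, 3.31, 2.91 and 1.503 CPM in injured MRL tendons. Both strains overlapped, with log2 fold changes of -0.41 (adjusted p = 0.815) in C57 and -1.26 (adjusted p = 0.196) in MRL. Col25a1 had no count in 10 libraries. Col26a1 had none in 13 and stood at 1.80 CPM in C57 injured replicate 1 and at 0.0597 and 0.241 CPM in uninjured MRL replicates 3 and 4.

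The ratio of 2 chains within a library does not depend on library size, and 7 ratios were compared between injured and uninjured tendons in each strain by exact permutation (two-sided, adjusted over 14 tests). With 4 against 4 libraries, 0.0286 is the smallest p that can be reached. The log2 ratio of Col8a2 to Col8a1 was 1.79 ± 0.78 (SD, n = 4) in uninjured and -0.39 ± 0.53 (SD, n = 4) in injured C57 tendons (exact p = 0.0286, adjusted p = 0.100). In MRL it was 1.60 ± 0.90 (SD, n = 4) and -1.54 ± 1.19 (SD, n = 4) (exact p = 0.0286, adjusted p = 0.100). Counts of Col8a2 exceeded those of Col8a1 in all 8 uninjured libraries and in 1 of the 8 injured ones. Neither ratio passed the adjustment, which with 4 ratios at the smallest possible p could not.

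The ratios of 2 other pairs did not overlap between uninjured and injured C57 tendons. The log2 ratio of Col12a1 to Col14a1 was 5.17 ± 1.44 (SD, n = 4) in uninjured and 1.66 ± 0.73 (SD, n = 4) in injured C57 tendons, and that of Col15a1 to Col18a1 was 3.13 ± 2.69 (SD, n = 4) and -0.33 ± 0.64 (SD, n = 4), each with an exact p of 0.0286 and an adjusted p of 0.100. In MRL the corresponding ratios were 6.63 ± 1.49 and 5.91 ± 1.67 (SD, n = 4, exact p = 0.514), and 2.74 ± 0.92 and 2.13 ± 0.33 (SD, n = 4, exact p = 0.257). Without the library labelled MRL uninjured replicate 4 these differences went from -0.72 to -0.19 and from -0.61 to -0.17. The other 4 pairs overlapped between uninjured and injured tendons in both strains. The log2 ratio of Col4a5 to Col4a1 differed by 1.10 in C57 and by -2.37 in MRL (exact p = 0.657 and 0.0571, adjusted p = 0.767 and 0.133). The value of C57 was 2.06 without its uninjured library numbered 4. Col4a1 to Col4a2 differed by 0.01 in C57 and 0.05 in MRL on the log2 scale (exact p = 1 and 0.943), Col6a2 to Col6a1 by 0.10 and 0.14 (exact p = 0.171 and 0.200), and Col6a3 to Col6a1 by 0.25 and 0.77 (exact p = 0.229 and 0.0571). Without each strain's uninjured library numbered 4 the values of Col6a2 to Col6a1 were 0.11 and 0.073, and those of Col6a3 to Col6a1 were 0.15 and 0.91.

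**Figure D4:**
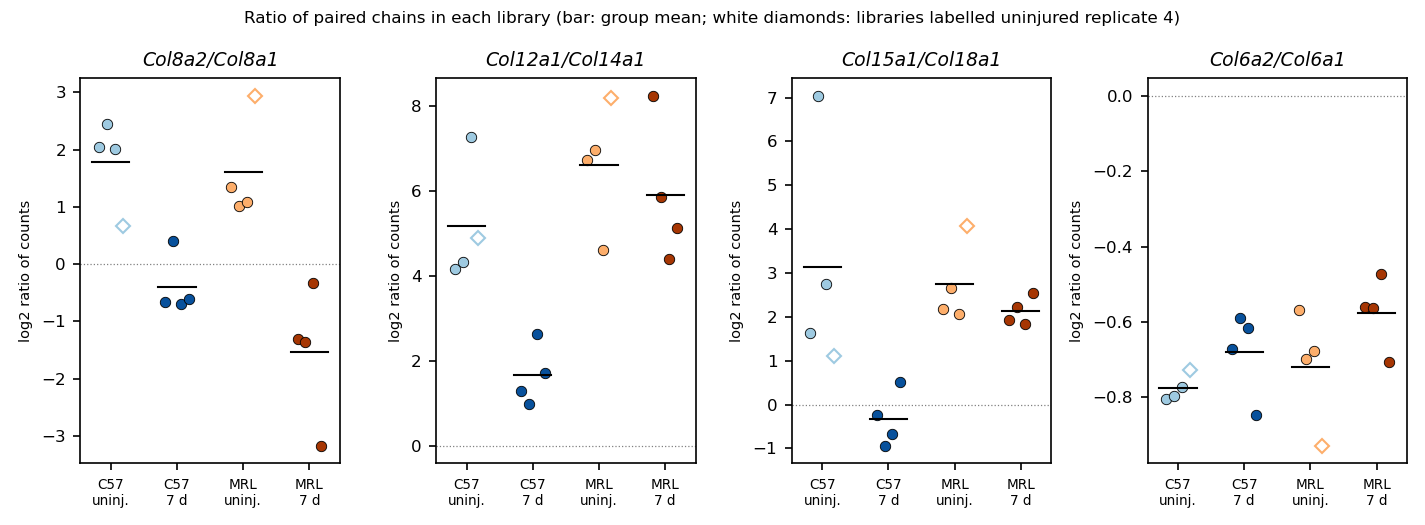
Log2 ratio of counts of 2 chains in each library by group (y axis), with bars at the group means and white diamonds for the libraries labelled uninjured replicate 4. The ratio of Col8a2 to Col8a1 is lower in all injured than in all uninjured libraries of the same strain, whereas that of Col6a2 to Col6a1 overlaps.

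Partners of these collagens gave a background for their values. Among 17 basement membrane genes other than collagens, 16 were tested in C57 and 1 was called, Nid1, which encodes the linker nidogen-1 and rose by 2.65 on the log2 scale (adjusted p = 0.0152). In MRL 15 were tested and 2 were called higher, Nid2 (2.05, adjusted p = 0.0140) and the peroxidase gene Pxdn (1.22, adjusted p = 0.0280), whose product crosslinks type IV collagen. In injured MRL against injured C57 tendons 12 of 16 had a negative log2 difference and 2 were called, Nid1 (-1.88, adjusted p = 0.000697) and the laminin chain Lamc1 (-1.08, adjusted p = 0.0167). The list's median log2 difference was -0.75, compared with -0.06 over all genes tested.

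Of 10 genes whose products bind fibril-associated collagens or lie on fibrils, 8 were tested in each strain. In MRL Tnc, which encodes tenascin-C, rose by 6.67 on the log2 scale (adjusted p = 0.000876) and Tnxb, which encodes tenascin-X, fell by 2.51 (adjusted p = 0.00410), whereas in C57 the values were 4.83 (adjusted p = 0.175) and -0.80 (adjusted p = 0.423). Of 11 fibrillar chain genes 10 were tested in each strain, and 4 were called higher in MRL, among them Col5a1 (1.53, adjusted p = 0.00524) and Col11a1 (1.58, adjusted p = 0.0189), and 0 in C57. The median log2 fold change of the fibrillar chains was 0.98 in MRL and 0.62 in C57, beside -0.03 and -0.05 over all genes. Among 10 collagen receptors Itga10 alone was called, lower in injured MRL tendons (-1.18, adjusted p = 0.0349), and 0 were called in C57. Of 7 sheddases and gelatinases Mmp2 alone was called, higher in injured C57 tendons (1.76, adjusted p = 0.0484).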

How the data were processed

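RNA of mouse flexor tendons was sequenced by the authors in 16 libraries, 4 in each of 4 groups. Per the labels and the study's methods, the authors deposited raw gene counts, made with Trimmomatic 0.36, STAR 2.5.2b and featureCounts of Subread 1.5.0p3 on GRCm38, without normalization or pooling. The methods describe pre-amplification of low-input RNA, the labels a kit without it, and molecular identifiers are not named, so counts need not be independent molecules. Strand use in counting is not given in the sources used here, and overlapping genes such as Col4a1 and Col4a2 could share reads. Libraries were grouped by their labels.

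Counts were tested with edgeR 4.0.16 (R 4.3.3; TMM factors, filterByExpr, robust quasi-likelihood fits) in the 8 libraries of each comparison, and the interaction in all 16. Adjusted p-values are Benjamini-Hochberg over all genes tested. DESeq2 1.42.0 was an alternative. Chain ratios used counts plus 0.5. Lengths came from GENCODE M21. Ranges of 3 counts cover counting error only. On simulated counts, 200 genes were changed by more than the log2 fold limit. For C57 injury 132 of the 200 were called (138 calls in all), for MRL injury 161 (171 calls) and for the interaction 114 (116 calls). Changed genes were thus missed, which limits what 0 calls in C57 and in the interaction show.

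Values are given in every library for chains called in any comparison and for the 2 highest per class. Col14a1, Col4a4, Col4a5 and Col23a1 were added after their values were seen. The members and lists were chosen with earlier results of these data known.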

Additional observations from a re-analysis of the deposited data

Results flagged for a closer look

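In 114 groups of 4 libraries in which a chain had more than 3 counts in at least 1 library, the highest or lowest value was tested for its distance from the other 3, and 23 groups were past the limit of Dixon's test, or 20.2%. The same test over all genes of the table passed 18.8% of groups, so the share of these chains was near that of any gene, while for normally distributed values chance passes about 1 in 20. In 11 of the 23 the other 3 libraries were at 0, which puts any value above 0 past the limit, so that this rate does not hold for them. No explanation was tested for any of them.

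The values set apart among the abundant chains were those of injured MRL replicate 2, with 5857 CPM of Col6a1 (the other 3 had 2828 to 3273) and 3962 CPM of Col6a2 (1917 to 2083), of injured C57 replicate 2, with 69.0 CPM of Col14a1 (20.8 to 25.1), and of the library labelled C57 uninjured replicate 4, with 60.4 CPM of Col8a2 (124 to 134). The same library stood apart with 241 CPM of Col17a1, 8.43 CPM of Col4a6 and 1.21 CPM of Col25a1, where the other 3 had at most 1.62, 0.0648 and 0 CPM, and it had 77316 CPM of keratinocyte markers. C57 injured replicate 1, the library with 60388 CPM of skeletal muscle markers, stood apart with 20.5 CPM of Col9a1, 1.80 CPM of Col26a1 and 1.26 CPM of Col25a1.

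The remaining 13 values were those of scarce chains. In C57 they were 1.41 CPM of Col28a1 and 0.540 CPM of Col9a2 in uninjured replicates 1 and 3, and 0.739 CPM of Col6a6 and 1.14 CPM of Col9a2 in injured replicates 2 and 4. In uninjured MRL they were 0.530 CPM of Col28a1 in replicate 1, and 0.656 CPM of Col4a6 and 2.15 CPM of Col9a2 in replicate 3. In injured MRL they were 0.227 CPM of Col4a3, 0.998 CPM of Col4a6 and 1.36 CPM of Col17a1 in replicate 2, and 0.882 CPM of Col6a6, 0.882 CPM of Col9a2 and 0.264 CPM of Col25a1 in replicate 3. No chain had groups that were apart in opposite directions in the 2 strains.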

How the results depend on the processing

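Of 83 recomputed counts of called chains, 66 were within 1.5 times the reported count. Most of these 66 were counts of 0 where 0 had been reported, so this share does not measure how stable the calls were. For injury in C57, where edgeR called 0, DESeq2 called 4 chains and 1 fit over all 16 libraries called 1 (Col14a1). Leaving out 1 library gave 0 to 3, with 3 (Col4a2, Col8a1 and Col8a2) without the library labelled uninjured replicate 4. Of all genes, DESeq2 called 3.54%, the fit over 16 libraries 2.30% and the fits without 1 library 0.0667% to 5.01%. Without both the library labelled C57 uninjured replicate 4 and C57 injured replicate 1, the same 3 chains and 5.97% of all genes were called. That alternative was chosen after seeing the data. For injury in MRL (4 called), DESeq2 called 8, the fit over 16 libraries 3 (Col6a1 and Col6a2 lost, Col8a1 gained), and leaving out 1 library gave 2 to 4. The shares of all genes were 6.92%, 5.04% and 4.64% to 8.58%. For injured MRL against injured C57 (5 called), DESeq2 called 9, the fit over 16 libraries 1 (Col12a1), and leaving out 1 library gave 2 to 4. The shares of all genes were 5.63%, 1.42% and 1.52% to 3.19%. For uninjured tendons (0 called), leaving out both libraries numbered 4, also chosen after seeing the data, gave 2 (Col16a1 and Col8a1) and 3.48% of all genes. The interaction gave 0 throughout. The causes were not tested. Other size factors and filters changed no count by more than 1.5 times.

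Same-numbered uninjured libraries of the 2 strains come from different animals, and the correlations of their deviations from the group means were -0.21, -0.02, -0.12 and -0.23, so the numbers do not pair them. With the replicate number as a block, 0 chains and 0 genes were called.

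Among the chains chosen for values in every library, log2 fold changes turned in sign in 21 recomputed values, and of these none was called. Chains outside this set crossed 0 as well, such as Col7a1 for injury in C57 (-0.58 to 1.92) and Col9a1 between injured strains (-1.23 to 2.85). With 1 library left out, the chains of the 21 values ranged across 0. For injury, the values were -0.733 to 0.0357 for Col4a4 in C57, and -0.159 to 0.492 for Col16a1 and -0.177 to 0.316 for Col22a1 in MRL. Between uninjured strains they were -0.568 to 0.218 for Col4a1, -0.577 to 0.107 for Col4a2, -0.0566 to 0.664 for Col4a4, -0.165 to 0.326 for Col6a3, -0.0759 to 1.32 for Col22a1, -0.201 to 0.359 for Col13a1 and -5.96 to 1.20 for Col17a1. Without both libraries numbered 4 they were -0.28 for Col6a3, -0.0248 for Col22a1 and 1.61 for Col17a1. In the interaction they were -0.0698 to 0.461 for Col8a1, -0.429 to 0.0823 for Col8a2 and -0.352 to 7.26 for Col17a1, and without both libraries numbered 4 -0.19 for Col8a1 and -0.76 for Col17a1. With 3 counts at 0.126 to 0.239 CPM before TMM scaling, chains such as Col6a4, Col6a5, Col10a1 and Col26a1 were too scarce for any comparison.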
